A study of Mus musculus with 3 samples.

Results

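Arterial endothelium of mouse ventricles was described here from single-barcode RNA counts, with its members chosen by a gate on marker genes. A barcode entered when its UMIs (unique molecular identifiers, each standing for 1 captured RNA molecule) of Ptprb, Pecam1, Cdh5, Flt1 and Cyyr1 summed to at least 4 and to at least 2 times the sum of Pdgfra, Dcn, Csf1r, Mrc1 and Abcc9. Barcodes with more than 2 UMIs of the endocardial and lymphatic genes Npr3, Smoc1, Reln, Mmrn1 and Prox1 were left out. The remainder were members when Gja5, Sema3g and Hey1 together held at least 2 UMIs. The gate found 298 members among 18021 barcodes: 104 in the TAC+ART library, 137 in the TAC library and 57 in the Sham library. They came from 1909, 2123 and 1127 gated endothelial barcodes of TAC+ART, TAC and Sham.

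All hearts were from C57B6 mice of unstated age. TAC+ART hearts had been put under pressure load by transverse aortic constriction and received artesunate, an antimalarial drug of the artemisinin family. TAC hearts had the constriction with vehicle, and Sham hearts had vehicle without it. Each group was 1 library made from 3 pooled ventricles that had been kept frozen, so no comparison between groups has a replicate and hearts cannot be told apart within a library. The labels do not say if intact cells or nuclei went into the droplets; barcodes are called cells below.

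Arteries carry blood at high pressure, and their endothelium differs from that of capillaries and veins in its junctions, its matrix and its signals. Notch signalling sets arterial fate: the ligands Dll4 and Jag1 act on Notch receptors of neighbouring cells, whose cleaved part joins the DNA-binding protein Rbpj and switches on the repressor genes of the Hey and Hes families. SoxF factors such as Sox17 act with it, and the ephrin ligand Efnb2 marks arteries where its receptor Ephb4 marks veins.

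The promoters of 4 genes are shown because the results below turn on the groups they belong to: Hey2 for the Notch targets, Tef for the clock genes, Nr4a1 for the immediate early genes and Gbp3 for the interferon-induced genes. Sequences are from RefSeq on GRCm38.p6, each with 250 bases before and 50 bases after a RefSeq start of the gene, read in the direction of the gene. For each gene the first window that held the motif was taken, so holding it was a condition for being shown. The Nr4a1 window lies downstream of the start of the whole annotated gene, chr15:101254269. Capitals mark the motif searched on both strands: GTGGGAA of Rbpj in Hey2 (chr10:30842734-30843033, minus strand), the E-box CACGTG of the clock factors in Tef (chr15:81802423-81802722, plus strand), TGACG, the core of the cyclic AMP response element, in Nr4a1 (chr15:101266596-101266895, plus strand), and the interferon response element, GAAA repeated after any 2 bases, in Gbp3 (chr3:142559794-142560093, plus strand, where 2 matches overlap).
Hey2: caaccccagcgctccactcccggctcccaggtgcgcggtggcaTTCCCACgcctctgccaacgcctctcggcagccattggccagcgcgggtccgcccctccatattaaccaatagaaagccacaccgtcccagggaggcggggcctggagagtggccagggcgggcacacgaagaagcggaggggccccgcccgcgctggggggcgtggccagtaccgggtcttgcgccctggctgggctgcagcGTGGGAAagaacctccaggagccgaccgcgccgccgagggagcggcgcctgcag
Tef: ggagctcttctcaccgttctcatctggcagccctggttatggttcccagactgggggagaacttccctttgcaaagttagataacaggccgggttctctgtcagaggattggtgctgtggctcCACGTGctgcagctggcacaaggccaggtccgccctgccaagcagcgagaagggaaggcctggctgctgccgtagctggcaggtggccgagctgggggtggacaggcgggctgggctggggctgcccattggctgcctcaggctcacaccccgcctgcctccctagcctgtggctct
Nr4a1: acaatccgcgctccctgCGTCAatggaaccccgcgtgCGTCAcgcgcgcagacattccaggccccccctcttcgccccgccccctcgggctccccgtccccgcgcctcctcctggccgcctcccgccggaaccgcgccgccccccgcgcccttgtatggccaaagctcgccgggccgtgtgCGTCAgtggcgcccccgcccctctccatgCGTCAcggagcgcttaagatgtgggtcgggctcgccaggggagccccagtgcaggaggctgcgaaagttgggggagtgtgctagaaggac
Gbp3: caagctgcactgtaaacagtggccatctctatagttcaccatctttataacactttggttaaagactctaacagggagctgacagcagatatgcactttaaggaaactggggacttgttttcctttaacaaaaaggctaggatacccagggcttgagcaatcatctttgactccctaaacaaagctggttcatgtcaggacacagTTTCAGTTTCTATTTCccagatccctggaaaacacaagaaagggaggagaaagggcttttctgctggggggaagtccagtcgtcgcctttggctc

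The Rbpj motif was in the window of 2 of 20 Notch pathway genes with a promoter in the table, Hey2 and Lfng, and in 6.38% of all 32851 promoters. The E-box was in 5 of 16 clock genes and 7.15% of all promoters. The core TGACG was in 11 of 20 immediate early and heat shock genes and 20.8% of all promoters, and the interferon motif was in 11 of 20 interferon response genes and 3.44% of all promoters. A listed gene counted when any of its windows matched, whereas the percentages are over single promoters, so the units differ. These matches describe letters in a window and are not binding sites.

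Members held 511771 UMIs in TAC+ART, 716977 in TAC and 258389 in Sham, with medians per cell of 4604, 4939 and 4253. Other gated endothelium, with a sum of Gja5, Sema3g and Hey1 of at most 1, was shallower, at medians of 3832, 4108 and 3600 UMIs in TAC+ART, TAC and Sham. The libraries shared 20 to 27 cell barcodes in pairs, and none of these was a member. Levels below are CPM, the UMIs of a gene scaled to a common total per class and library. In Sham members 1 UMI was thus worth 3.87 CPM, so Sham levels of low genes carry wide intervals. All intervals are 95% and cover counting error only.

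The gate genes themselves describe how cells entered and carry no test. Gja5, the gap junction protein connexin 40, stood at 267.7 CPM in TAC+ART, 318 in TAC and 278.6 in Sham members. Sema3g, a secreted guidance protein, stood at 426, 461.7 and 503.1 CPM in the same order. Hey1, a Notch-induced repressor, stood at 154.4, 167.4 and 131.6 CPM. No gate gene differed past 1.5-fold between any 2 libraries. Few cells showed all 3 genes: 9 of 104 members in TAC+ART, 24 of 137 in TAC and 6 of 57 in Sham. Sema3g alone admitted 22, 27 and 19 cells, so it decided more of the Sham members (33.3%) than of the TAC+ART (21.2%) or TAC members (19.7%). Just inside the threshold, at a sum of 2, were 45, 51 and 21 cells in TAC+ART, TAC and Sham, and just outside it, at a sum of 1, were 144, 153 and 61. In fibroblast, macrophage, mural and cardiomyocyte gates, 0% to 0.901% of cells reached a sum of 2. The part of free RNA in the droplets in these values was not tested.

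Members made up 5.45% of gated endothelium in TAC+ART (Clopper-Pearson interval 4.47% to 6.56%), 6.45% in TAC (5.45% to 7.58%) and 5.06% in Sham (3.85% to 6.5%). The log2 ratio of these shares was -0.24 for TAC+ART over TAC (-0.60 to 0.11) and 0.35 for TAC over Sham (-0.08 to 0.78). Both intervals include 0, so with this gate no difference in share was detectable at this depth. The spread between hearts cannot be measured here. With Sema3g left out of the sum, members numbered 83 of 2123 in TAC and 23 of 1127 in Sham. The ratio of TAC over Sham was then 0.94, above the interval given for the full gate, so this result depends on the gate genes used.

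The first question was what else the gated cells express. Arterial members and other endothelium were compared in 1 model across the 3 libraries (edgeR's quasi-likelihood test on 6 sums, with library as a block and Benjamini-Hochberg adjustment), with all gate genes taken out. Of 12792 genes tested, 620 (4.85%) were higher and 551 (4.31%) were lower in arterial cells at an adjusted p under 0.05, together 9.15%. Arterial identity genes outside the gate followed the label: of 30 listed and tested, 29 were higher and 1, Nrp1, was lower, with a median log2 difference of 1.62 against -0.01 over all genes. The list was written with earlier results of these data known, so its count describes the cells and is no independent evidence for the gate.

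Among transcription factors, Sox17, a SoxF factor of arterial fate, had 240.3, 202.2 and 263.2 CPM in arterial cells of TAC+ART, TAC and Sham, against 48.6, 48.8 and 41.4 CPM in other endothelium. The groups did not overlap, and the log2 difference was 2.36 ± 0.15 (SE, adjusted p = 6.08e-10). Prdm16, a zinc-finger regulator found in arterial endothelium, had 457.2, 518.8 and 723.7 CPM in arterial cells of the 3 libraries, against 38.6, 43.3 and 37.5 CPM in other endothelium (3.83 ± 0.14, adjusted p = 2.49e-13). Mecom, a zinc-finger transcription factor, was 1.40 higher on the log2 scale at 4983, 4130 and 5577 CPM in arterial cells. The noncoding genes Mannr (4.73) and Gm33206 (5.30) were among the 15 highest. Both lie on chromosome 3 of GRCm38, Mannr at 29891014 to 29924191 on the plus strand and Gm33206 at 29773466 to 29893177 on the minus strand, so their ends overlap and reads there may not be told apart. Of 26 endothelial transcription factors tested, 7 were higher and 6 lower. Sox18, Sox6, Gata2 and Id1 were among those higher, and the vein regulator Nr2f2 fell by 2.26 on the log2 scale, to 31.3, 36.3 and 23.2 CPM in arterial cells against 152.2, 151.6 and 188 CPM in other endothelium.

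Notch ligands and receptors were higher, while most of the machinery that cells share was not called. Jag1, a ligand, had 367.4, 375.2 and 514.7 CPM in arterial cells of TAC+ART, TAC and Sham, against 52.1, 63.5 and 60.8 CPM in other endothelium (2.85 ± 0.13 on the log2 scale, adjusted p = 4.64e-12). Dll4 was higher by 1.39, Jag2 by 0.89, the receptor Notch1 by 0.96 and Notch4 by 1.03. The target Hey2 had few UMIs, 25, 11 and 13 in the 3 libraries, and was higher by 3.14 (adjusted p = 1.15e-05). Nrarp, a feedback inhibitor induced by Notch, was higher by 1.24. Rbpj (-0.12), Hes1 (-0.05), Maml1 (-0.09), Adam10 (0.03) and Numb (-0.09) were not called. In all, 7 of 25 Notch pathway genes were higher and 2, Lfng and Maml3, were lower.

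**Figure D1:**
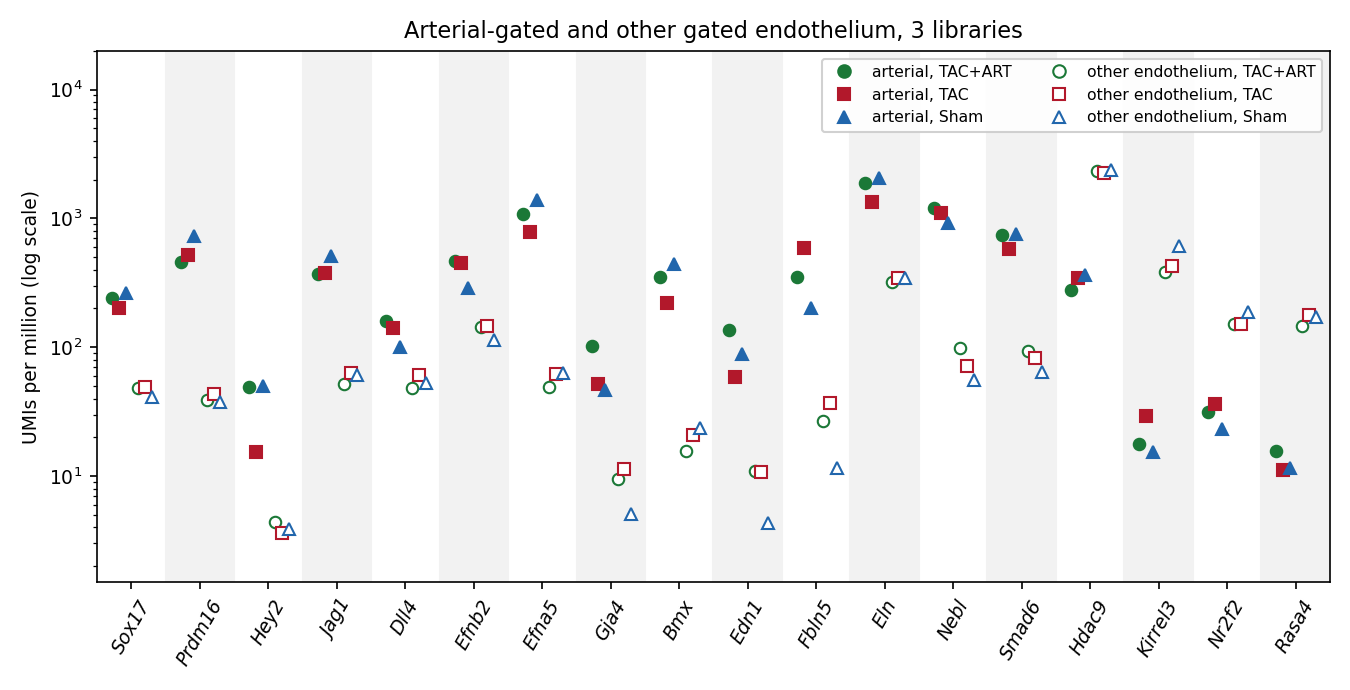
CPM on a log scale for 18 genes in arterial-gated cells (filled) and other gated endothelium (open), 1 point per library (TAC+ART, TAC, Sham; single libraries without error bars). From Sox17 to Smad6 every filled point lies above every open point of its gene, and from Hdac9 to Rasa4 every filled point lies below.

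Guidance and junction genes showed the same split. Efna5, an ephrin ligand, had 1084, 789.4 and 1397 CPM in arterial cells, against 49.5, 61.6 and 63.2 CPM in other endothelium of TAC+ART, TAC and Sham, a log2 difference of 4.24 ± 0.15 (adjusted p = 1.56e-13). Efnb2 was higher by 1.63 and its receptor Ephb4 was lower by 0.72. Unc5b, a netrin receptor, was higher by 1.58, and Ntn4, a netrin, by 2.15. Nrp2, a semaphorin and VEGF-C receptor of veins and lymphatics, was lower by 2.46. Of 21 guidance genes tested 9 were higher and 4 lower. Gja4, the gap junction protein connexin 37, was higher by 2.93, at 101.6, 51.6 and 46.4 CPM in arterial cells against 9.42, 11.4 and 5.09 CPM in other endothelium.

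Elastic fibre and matrix genes separated within the list of arterial wall matrix: 11 of 28 were higher and 6 lower. Eln, which encodes the elastin of the vessel wall, had 1874, 1349 and 2059 CPM in arterial cells, against 320.9, 342.7 and 345.2 CPM in other endothelium of TAC+ART, TAC and Sham (2.42 ± 0.12 on the log2 scale, adjusted p = 1.25e-11). Fbln5, which helps to assemble elastic fibres, was higher by 3.96, Fn1 (fibronectin) by 2.55, the sulfatase Sulf1 by 2.41, Col8a1 by 1.71 and Col18a1 by 3.79. Col4a1 (-0.50), Col4a2 (-0.55), Hspg2 (-0.72) and Col15a1 (-1.50) were among the 6 lower. Col8a1 is also in the fibroblast list and reaches 1582 CPM in another gated class of the TAC or Sham library. The whole matrix list summed to 9752, 9960 and 8890 CPM in arterial cells of TAC+ART, TAC and Sham. It summed to 5973, 7260 and 4401 CPM in other endothelium and to 14205, 16556 and 9531 CPM in the fibroblast gate. The part of free fibroblast RNA was not tested.

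Vessel tone genes showed arterial and capillary sides. Edn1, the vasoconstrictor endothelin, was higher by 3.36 and Nos3, which makes nitric oxide, by 0.72. The channels Kcnn3 (2.87), Kcnn4 (3.14) and Trpv4 (1.45), which act in endothelium-dependent relaxation, were also higher, while the water channel Aqp1 was lower by 2.17. The shear-stress factors Klf2 (0.09) and Klf4 (-0.05) were not called. Of 28 tested in the flow and tone list, 8 were higher and 6 lower. Among genes of TGF-beta and BMP signalling, 11 of 31 were higher and 3 lower; the inhibitory Smad6 had 742.5, 581.6 and 762.4 CPM in arterial cells, against 93, 82.1 and 64.4 CPM in other endothelium of TAC+ART, TAC and Sham, and was higher by 3.15 ± 0.14. Smad7 was higher by 1.28 and the ligand Tgfb2 by 2.52.

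Other genes among the 15 highest were the calcium pumps Atp2b2 (4.95) and Atp2a3 (3.69), Ptchd1 (4.59), Eps8l2 (4.53), the non-receptor tyrosine kinase Bmx (4.07), Nebl (3.92), the protease Pcsk5 (3.90), Tmem100 (3.73) and Gcnt1. Bmx had 353.7, 219 and 445.1 CPM in arterial cells, against 15.8, 20.9 and 23.5 CPM in other endothelium of TAC+ART, TAC and Sham. Among the 10 lowest were Kirrel3 (-4.25), Lhx6 (-3.95), Cysltr1 (-3.80), Rasa4 (-3.64), Samd5 (-3.34), Piezo2 (-3.20), Hdac9 (-2.78), Cxxc4 (-2.76) and Adamtsl1 (-2.67). Hdac9, a class II histone deacetylase, was the most abundant of those named, at 277.5, 343.1 and 363.8 CPM in arterial cells against 2334, 2249 and 2374 CPM in other endothelium.

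Capillary genes were not absent from the members. Of 22 capillary genes 11 were lower and 2, Btnl9 (1.26) and Kcnq1 (1.24), were higher. Cd36, a fatty acid carrier, had 1083, 1396 and 828.2 CPM in arterial cells, against 1680, 1872 and 1302 CPM in other endothelium of TAC+ART, TAC and Sham (-0.51). Of 16 venous genes 9 were lower and none was higher, while 4 of the 16 had a positive difference; Aplnr, the apelin receptor of veins and capillaries, fell by 2.19. Against Vwf-rich endothelium alone, Nrp1 was higher by 0.51.

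Markers of other cell types were measured beside these results. In the arterial cells the smooth muscle list summed to 1411, 1527 and 1540 CPM in TAC+ART, TAC and Sham, with 3, 2 and 1 of its 14 genes at 0, against 1237, 1323 and 1154 CPM in other endothelium. Mural cells held 2815, 2910 and 3162 CPM. The contractile gene Cnn1 had 0, 1 and 1 UMIs and Acta2 had 9, 7 and 12 UMIs in the members, and of 11 smooth muscle genes tested Cald1 (0.76) and Mylk (0.77) were higher than in other endothelium. None of 11 cardiomyocyte or 10 macrophage genes tested passed the threshold in either direction. Of 9 pericyte genes tested 1, Rgs5, was higher (0.74, adjusted p = 0.0177) and 1 was lower, and of 11 fibroblast genes Col8a1 was higher.

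Members varied with the strength of the gate. The arterial list summed to 12980, 16296 and 19218 CPM in TAC+ART cells with a gate sum of 2, of 3 to 4 and of at least 5. In TAC it summed to 10251, 14062 and 18081 CPM over the same steps. In Sham the steps were uneven, at 17769, 14244 and 19205 CPM, with 21, 22 and 14 cells behind them. Capillary genes were lowest at a sum of at least 5: 12537, 9802 and 6763 CPM in TAC+ART, 12239, 10672 and 6545 CPM in TAC, and 9555, 10239 and 4295 CPM in Sham. Cells with a sum of 1, outside the gate, had 8158, 7723 and 8265 CPM of the arterial list in TAC+ART, TAC and Sham, and cells with a sum of 0 had 6592, 6155 and 6651 CPM. The capillary list had 13745, 13155 and 13824 CPM at a sum of 1 in these libraries. At a sum of 0 it had less, 13171, 12052 and 11615 CPM, so it did not fall at every step. Median UMIs per cell were also highest at a sum of at least 5 in TAC+ART and Sham (5366 and 5030), while in TAC they were 5175 at 3 to 4 and 5094 at 5 or more; depth thus moves with the steps, and its part was not tested.

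**Figure D2:**
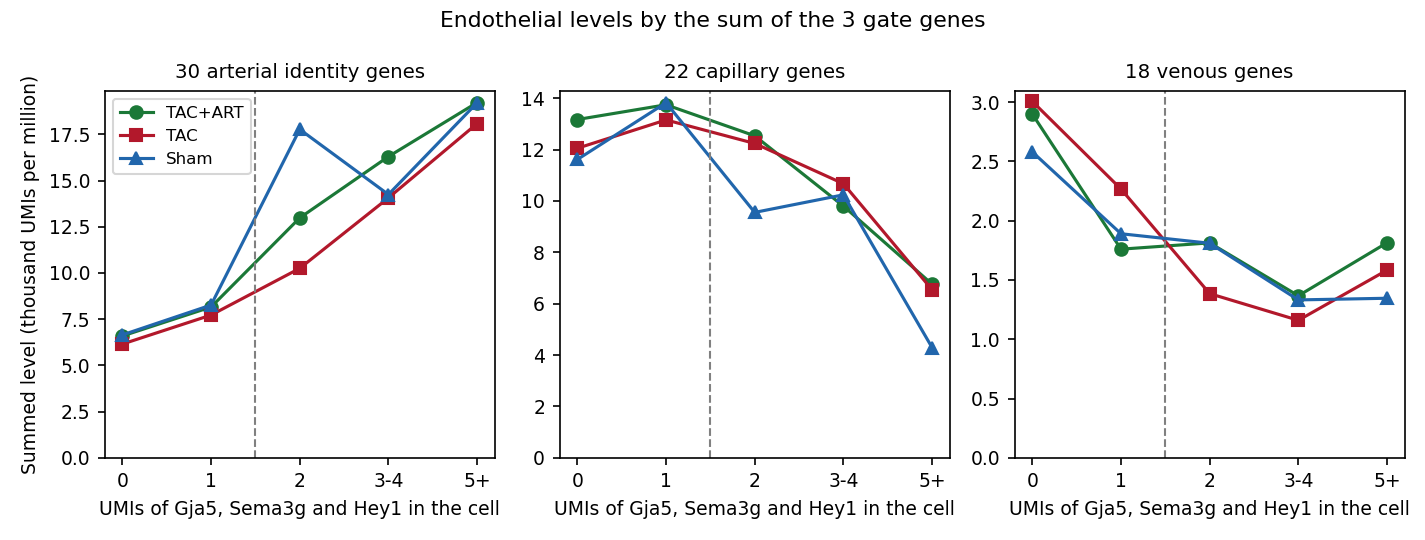
Summed CPM, in units of 1000, of 30 arterial, 22 capillary and 18 venous genes against the UMIs of Gja5, Sema3g and Hey1 per cell, 1 line per library; the dashed line is the gate's threshold. The arterial sum is higher and the capillary sum lower at 5 or more gate UMIs than at 0 in all 3 libraries, with 19218 against 6592 CPM for the arterial list in TAC+ART.

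A second division ran along Gja5 itself, the gap junction gene typical of larger arteries. Members with a Gja5 UMI numbered 51 in TAC+ART, 63 in TAC and 21 in Sham, and members without one numbered 53, 74 and 36. Cells with Gja5 had 3144, 2508 and 3816 CPM of Eln in TAC+ART, TAC and Sham, against 455.1, 332.4 and 1031 CPM in cells without it. The log2 ratio was 2.78 (2.50 to 3.09) in TAC+ART, 2.91 (2.65 to 3.20) in TAC and 1.89 (1.62 to 2.16) in Sham. Bmx had 562.9, 421 and 859.6 CPM with Gja5, against 120, 41.9 and 202.5 CPM without. The matrix Gla protein Mgp had 2733, 1881 and 2338 CPM with Gja5, against 835.7, 670.1 and 576.7 CPM without. Vwf, the clotting factor carrier of larger vessels, had 555.5, 474.7 and 356.4 CPM with Gja5, against 111.7, 49.7 and 135 CPM without. For each of these 4 genes, chosen with the data known, the 3 libraries with Gja5 lay above the 3 without. For Dll4, Hey2 and Edn1 the sides overlapped, and the share of all genes that separate in this way was not measured.

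Capillary genes took the opposite side. The list summed to 6980, 6702 and 2380 CPM in cells with Gja5 of TAC+ART, TAC and Sham, against 12634, 11897 and 11663 CPM in cells without. Btnl9, an immunoglobulin-family gene of capillary endothelium, had 396.2, 328.4 and 115.3 CPM with Gja5, against 802.6, 722.5 and 681 CPM without. Rgcc, Cd36 and Nrp1 were lower with Gja5 in every library, and so was Unc5b, although its TAC interval reaches 0.01 (log2 ratio -0.47, -0.98 to 0.01). Sox17 had smaller positive ratios of 0.29 (-0.25 to 0.83) in TAC+ART, 0.57 (0.08 to 1.07) in TAC and 0.35 (-0.40 to 1.08) in Sham. Efnb2 had ratios of both signs, 0.12, -0.02 and -0.36 in TAC+ART, TAC and Sham. The venous list was also higher with Gja5. Its ratios were 0.19 (-0.003 to 0.39) in TAC+ART, 0.55 (0.37 to 0.73) in TAC and 0.69 (0.39 to 0.99) in Sham. The cells within a library share their hearts and the genes were chosen with these data known, so the ratios are a description and carry no test.

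**Figure D3:**
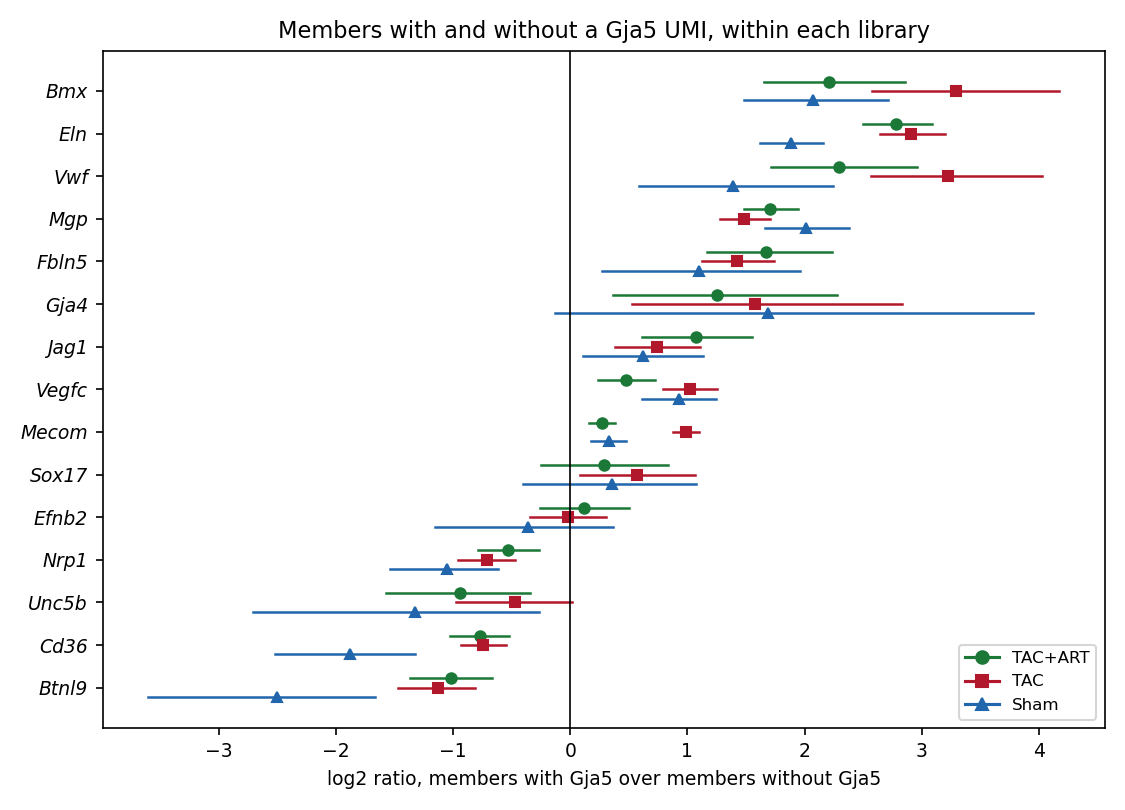
Log2 ratio of CPM in members with a Gja5 UMI over members without one, for 15 genes in each library; bars are 95% counting intervals. Eln, Bmx, Vwf and Mgp lie right of 0 and Btnl9, Cd36 and Nrp1 left of it in all 3 libraries, while the intervals of Efnb2 span 0 in all 3.

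The next question was how arterial cells differed under pressure load. In members, 5816 genes had at least 30 UMIs in TAC and Sham together, and 906 (15.6%) were at least 1.5-fold higher and 743 (12.8%) at least 1.5-fold lower in TAC than in Sham. With 57 Sham cells many of these ratios rest on few molecules, and the count is a background, not a number of changed genes. Scaling the totals by TMM moved the median log2 ratio of all genes to 0.13 from 0.01 and the counts to 1223 higher and 517 lower, a shift that applies to every TAC over Sham ratio below.

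Of 24 arterial wall matrix genes with enough UMIs, 10 were higher past 1.5-fold in TAC, 2 were lower and 12 were not called, with a median log2 ratio of 0.51 against 0.01 over all genes. Col4a2, a basement membrane collagen, had 539.8 CPM in TAC and 139.3 CPM in Sham, a log2 ratio of 1.94 (1.46 to 2.49). Its partner Col4a1 had 686.2 CPM in TAC and 263.2 CPM in Sham (1.37, 1.01 to 1.77). Fbln5 had 590 CPM in TAC and 201.2 CPM in Sham (1.54, 1.13 to 1.996), in 66.4% of TAC members and 43.9% of Sham members. All 3 were also higher in other endothelium, by 1.49 (Col4a2), 1.47 (Col4a1) and 1.66 (Fbln5). The 2 lower genes were Eln, at 1349 CPM in TAC and 2059 CPM in Sham (-0.61, -0.76 to -0.45), and Col8a1, at 500.7 and 1057 CPM (-1.08, -1.31 to -0.84). The ratio for Eln was 0.17, the opposite direction, when members needed a gate sum of 3. The fibroblast list moved with these genes: 6 of 10 measured were higher past 1.5-fold in TAC members and 1, Col8a1, was lower, with a median log2 ratio of 1.25, and 7 of 12 were higher and none lower in other endothelium (median 0.79). Postn, a matricellular protein of activated fibroblasts, had 253.8 CPM in TAC members and 23.2 CPM in Sham members, and Col3a1, a fibrillar collagen, had 284.5 and 54.2 CPM. The list summed to 2564 CPM in TAC members and 2063 CPM in Sham members, where Col8a1 makes up 500.7 and 1057 CPM, and to 2512 and 1175 CPM in other endothelium. Its part in the matrix values was not tested.

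Of 28 arterial identity genes measured, 4 were higher and 4 lower past 1.5-fold in TAC, with a median of -0.12. Over all genes 15.6% were higher and 12.8% lower, so the list's counts are at the background. Efnb2 had 447.7 CPM in TAC and 286.4 CPM in Sham (0.64, 0.28 to 1.03), and Igfbp3, a binding protein of insulin-like growth factors, had 196.7 and 96.8 CPM (0.9999, 0.40 to 1.70). Bmx had 219 CPM in TAC and 445.1 CPM in Sham (-1.02, -1.38 to -0.66), and Alox12, a lipoxygenase, had 53 and 123.8 CPM (-1.23, -1.94 to -0.50). Efna5 was lower in TAC as well, at 789.4 CPM against 1397 CPM in Sham (-0.82, -1.02 to -0.63). In other endothelium the same 3 genes had ratios of -0.17 (Bmx), -0.48 (Alox12) and -0.04 (Efna5). Intervals of Sox17 (-0.39, -0.81 to 0.06), Gja4 (0.11, -0.82 to 1.23), Dll4 (0.47, -0.15 to 1.17) and Notch1 (0.32, -0.08 to 0.76) span 0. Hey2 had 11 UMIs in TAC and 13 in Sham, under the minimum of 30 for a ratio. Bmx and Eln, both lower in TAC, are high in cells with Gja5. Such cells made up 46% of TAC and 36.8% of Sham members, and their part in these ratios was not tested.

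Of 4124 genes ranked, the 10 with the highest ratios included an early-response gene and secreted factors. Ccn3, a matricellular protein, had 45 UMIs in 14 TAC cells and 0 in Sham, which is at least a log2 ratio of 2.44 when Sham is set at the floor of 3 UMIs, and 0.12 in other endothelium. Apold1, an endothelial early-response gene, had 125.5 CPM in TAC and 11.6 CPM in Sham, with 90 and 3 UMIs (3.22, 1.84 to 5.74). Spry4, an inhibitor of growth factor signalling, had 61.4 CPM in TAC and 3.87 CPM in Sham (3.42, 1.43 to 9.32). Stc1 (2.69, 1.44 to 4.76) and the endothelin receptor Ednrb (2.47, 1.32 to 4.26) were also higher, in 33.6% and 29.9% of TAC members against 5.26% and 7.02% of Sham members. Ddit4 (3.17), Gm43713 (3.13), Nmnat2 (2.81) and Serpinf1 (2.62) complete the list, together with Kcnc2, whose 3.80 comes largely from 1 cell with 90 of its 135 TAC UMIs. Other endothelium was also higher in TAC than in Sham for Apold1 (115.8 and 42.4 CPM), Ednrb (168.7 and 52.6) and Serpinf1 (47.6 and 5.57). The same held for Spry4 (55.1 and 27.6), Stc1 (38.9 and 17.4) and Ddit4 (50.84 and 30.04). Gm43713 (38.92 and 35.85 CPM), Nmnat2 (8.999 and 6.056) and Kcnc2 (238.9 and 241) differed less there.

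At the other end, Tgfb2, a ligand of the TGF-beta family, had 44.6 CPM in TAC and 317.4 CPM in Sham (-2.82, -3.47 to -2.22), in 14.6% of TAC members and 33.3% of Sham members, and its ratio in other endothelium was 0.00 (-0.39 to 0.41). Esr1, an oestrogen receptor, had 27.9 CPM in TAC and 150.9 CPM in Sham (-2.42, -3.29 to -1.62). Fhit (-2.98), Bpgm (-2.57), Slc4a4 (-2.20), Galk2 (-2.07), 4933406I18Rik (-2.07), Fam135a (-2.05) and Spon1 (-2.03) were the others. The last place, G630055G22Rik (-3.43), rests on 1 Sham cell with all 48 of the gene's Sham UMIs.

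Endothelial activation genes were measured in both classes. Vcam1, an adhesion molecule for leukocytes, had 126.9 CPM in TAC members and 263.2 CPM in Sham members (-1.05, -1.52 to -0.58). Its ratio in other endothelium was 1.51 (1.36 to 1.68). The share of members with a Vcam1 UMI was 24.8% in TAC and 24.6% in Sham. In TAC 33% of its UMIs lay in 1 cell, and in Sham 17.6% did. Icam1, another adhesion molecule, had 62.8 and 42.6 CPM in TAC and Sham members (0.51, -0.41 to 1.66), against a ratio of 2.27 (2.06 to 2.49) in other endothelium. Of 12 activation genes measured in members, 3 were higher past 1.5-fold and 1 lower (median 0.35), and in other endothelium 13 of 20 were higher and none lower (median 0.97), where the background was 11% higher and 11.6% lower of 14439 genes. The 13 and 20 cover more genes than the 12 measured in members, and with 1 library per group the difference between the classes was not tested.

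The list of flow response and vessel tone had no common direction in TAC: of 20 measured 6 were higher and 6 lower past 1.5-fold, with a median of -0.05. Ptgis, the prostacyclin synthase, had 30.7 CPM in TAC and 89 CPM in Sham members (-1.53, -2.45 to -0.63), and Kcnn3 had 41.8 and 104.5 CPM (-1.32, -2.12 to -0.51). Among the higher members were the flow-responsive transcription factors Klf2 and Klf4. Klf2 had 477 CPM in TAC members and 274.8 CPM in Sham members (0.79, 0.42 to 1.19), with 0.76 in other endothelium. Klf4 had 325 and 170.3 CPM (0.92, 0.46 to 1.43), with 0.45 in other endothelium. The stretch-activated channel Piezo1 had 177.1 and 89 CPM in TAC and Sham members (0.97, 0.34 to 1.70). Tlr4, the receptor that MD2 serves, had 121.3 CPM in TAC and 42.6 CPM in Sham members (1.46, 0.60 to 2.57), in 34.3% and 14% of cells, with 0.58 in other endothelium. Ly96, which encodes MD2, had 14 UMIs in TAC and 5 in Sham members, and Cd14 had 1 in each, so neither can be compared. Of 14 genes of the TLR4 and MD2 list that could be measured 3 were higher and 1 lower. Over all genes 15.6% were higher and 12.8% lower, so these counts are near the background.

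**Figure D4:**
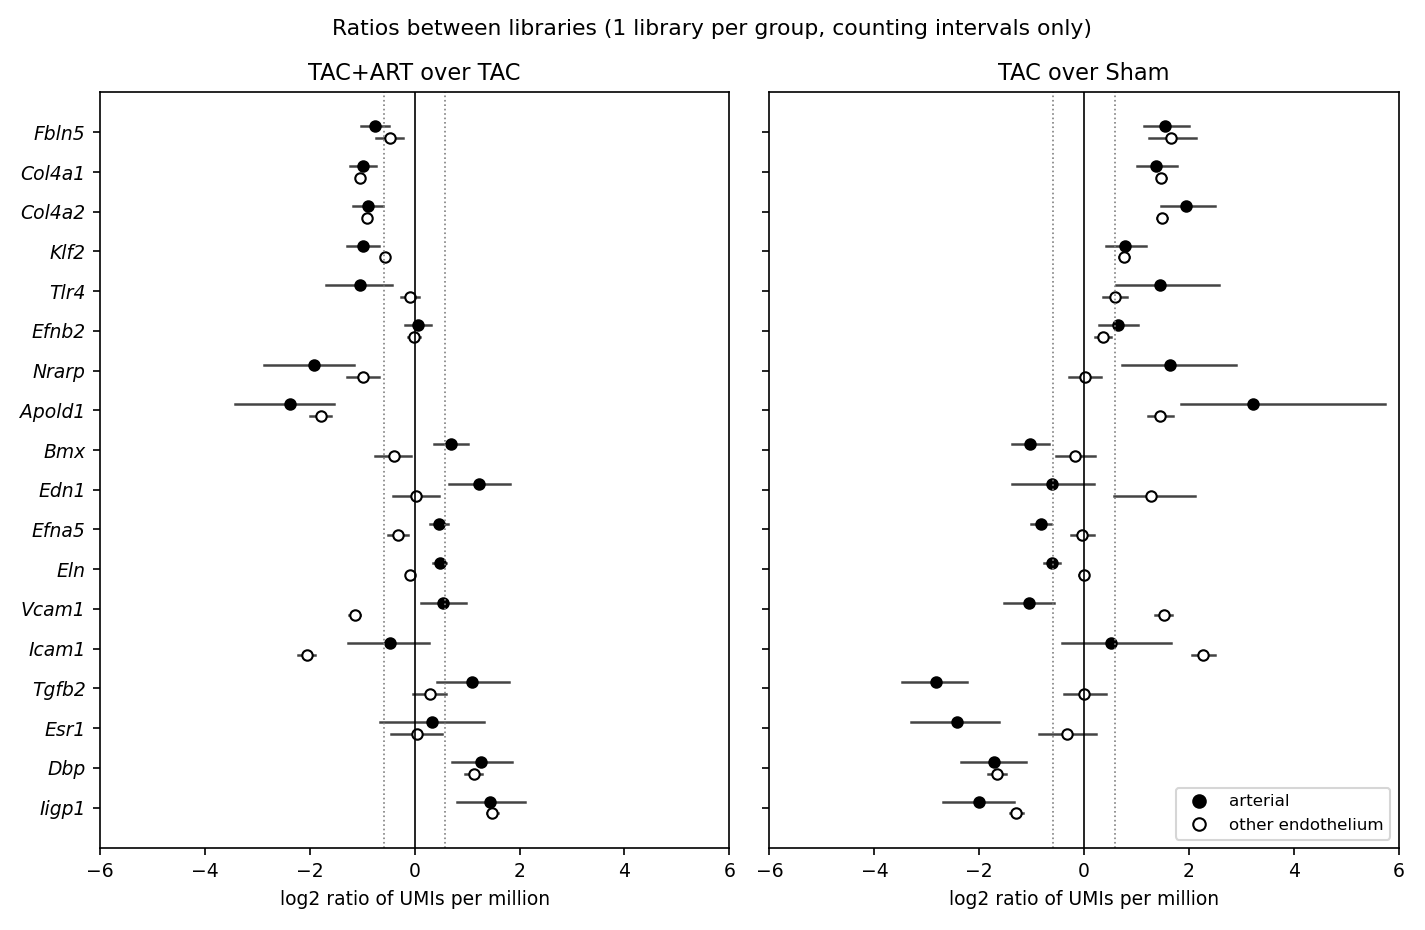
Log2 ratios of CPM for TAC+ART over TAC (left) and TAC over Sham (right) in arterial members (filled) and other endothelium (open); bars are 95% counting intervals, dotted lines mark 1.5-fold, and each group is 1 library. The matrix genes Fbln5, Col4a1 and Col4a2 lie right of 0 in the TAC over Sham panel in both classes, whereas Vcam1 lies left of 0 in arterial members and right of it in other endothelium.

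The last question was how artesunate-treated TAC hearts compared with vehicle-treated ones. In members 6697 genes had enough UMIs, and 656 (9.8%) were at least 1.5-fold higher and 764 (11.4%) at least 1.5-fold lower in TAC+ART than in TAC. The TAC library stands in both this comparison and the one with Sham, so a low or high value in TAC alone gives opposite ratios in them. Matrix genes were more often lower than higher: 8 of 27 lower and 2 higher (median -0.14 against -0.02 over all genes). Col4a1 had 347.8 CPM in TAC+ART and 686.2 CPM in TAC (-0.98, -1.24 to -0.73), Col4a2 had 291.1 and 539.8 CPM (-0.89, -1.17 to -0.61), and Fbln5 had 349.8 and 590 CPM (-0.75, -1.01 to -0.50). Vcan, a proteoglycan, had 43 and 107.4 CPM (-1.30, -2.08 to -0.62). Mgp, at 1837 and 1236 CPM (0.57), lay just short of 1.5-fold on the higher side. Of 11 fibroblast genes 3 were higher and 2 lower (median 0.29), and the list summed to 2915 CPM in TAC+ART members and 2564 CPM in TAC members. In other endothelium the matrix genes named as lower were lower too. Col4a1 had 504.4 CPM in TAC+ART and 1033 CPM in TAC there, Col4a2 409.2 and 772.4, Fbln5 26.67 and 37.01, and Vcan 43.91 and 92.46.

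Arterial identity genes held 6 higher and 2 lower values of 29 (median 0.10). Edn1 had 136.8 CPM in TAC+ART and 58.6 CPM in TAC (1.22, 0.65 to 1.81), in 31.7% and 15.3% of members, with 0.03 in other endothelium. Gja4 had 101.6 and 51.6 CPM (0.97, 0.34 to 1.63), and -0.27 in other endothelium. Hey2 had 25 UMIs in TAC+ART and 11 in TAC (1.64, 0.60 to 2.84), and Bmx had 353.7 and 219 CPM (0.69, 0.38 to 1.01). Alox12 was higher by 1.32 (0.73 to 1.94). The 2 lower genes were Fbln5 and Igfbp3 (-0.97, -1.47 to -0.51). Efnb2 (0.06), Jag1 (-0.03), Sox17 (0.25) and Notch1 (-0.11) had intervals that span 0. Within the Notch pathway Rbpj, also in the macrophage list, had 275.5 CPM in TAC+ART and 124.1 CPM in TAC (1.15, 0.76 to 1.55). It was seen in 61.5% of TAC+ART and 35% of TAC members. In TAC+ART 19.9% of its UMIs lay in 1 cell, and in TAC 25.8% did. Other endothelium had 211.8 CPM of Rbpj in TAC+ART and 168.4 CPM in TAC. Nrarp had 29.3 and 114.4 CPM in TAC+ART and TAC members (-1.93, -2.87 to -1.16), in 11.5% and 39.4% of members.

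Klf2, Klf4 and Tlr4 stood below their TAC levels in TAC+ART members. Klf2 had 240.3 CPM in TAC+ART and 477 CPM in TAC (-0.99, -1.30 to -0.69), with -0.56 in other endothelium, and Klf4 had 209.1 and 325 CPM (-0.63, -0.98 to -0.30). Tlr4 had 58.6 CPM in TAC+ART and 121.3 CPM in TAC (-1.03, -1.70 to -0.44), in 25% and 34.3% of members, with -0.10 (-0.27 to 0.07) in other endothelium. Ly96 had 14 UMIs in each. Of 17 TLR4 and MD2 genes measured 3 were lower and 1 higher (median -0.37), where 11.4% of all genes were lower and 9.8% higher. Counts this small are near that background.

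Angpt1, Bmp4 and Rgs5 stood above their TAC levels in TAC+ART members. Angpt1, the Tie2 ligand, had 166.1 CPM in TAC+ART, 71.1 in TAC and 150.9 in Sham members, with log2 ratios of 1.22 (0.71 to 1.75) for TAC+ART over TAC and -1.09 (-1.72 to -0.45) for TAC over Sham. Bmp4, a BMP ligand, had 68.4, 20.9 and 61.9 CPM in the same order. Rgs5, a regulator of G protein signalling best known from pericytes, had 216.9, 96.2 and 313.5 CPM in TAC+ART, TAC and Sham members. Its ratios were 1.17 (0.73 to 1.63) for TAC+ART over TAC and -1.70 (-2.19 to -1.22) for TAC over Sham, beside 0.02 and -0.24 in other endothelium. Rgs5 was seen in 23.1% of TAC+ART, 21.9% of TAC and 26.3% of Sham members, and 35.1% of its TAC+ART UMIs lay in 1 cell. The whole pericyte list summed to 1008, 824.3 and 944.3 CPM in the same members, and its part in these values was not tested.

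The highest ratios of the 4018 ranked genes included Gkn3, a secreted gastrokine gene, with 30 UMIs in 14 TAC+ART cells and 7 UMIs in 6 TAC cells (2.51, 1.37 to 4.02), and it was also 5.72 higher in arterial than in other endothelium. Gpr161 (2.75, 1.46 to 4.602), Coro2a (1.93), Bpgm (1.93), Cnnm2 (1.88), Lbh (1.80), Ccser1 (1.78), Parp11 (1.74) and Enpp3 (1.73) followed. The top value, 3.38 for Inhba, comes from 1 cell with 27 of its 33 TAC+ART UMIs. At the low end Nmnat2, an NAD-synthesis enzyme, had 0 UMIs in TAC+ART and 48 in TAC, a log2 ratio of at most -3.51 with TAC+ART at the floor of 3 UMIs. Apold1 had 23.4 CPM in TAC+ART and 125.5 CPM in TAC (-2.37, -3.43 to -1.54), and the protease Adamts1 had 68.4 and 327.8 CPM (-2.24, -2.82 to -1.74). Fosl2 (-2.47), Gm38477 (-2.53), Cabp1 (-2.29), Nr4a1 (-2.19), Sik1 (-2.03), Nrarp and P2ry2 (-1.91) complete it. All of these low-end genes were also lower in TAC+ART than in TAC in other endothelium. Apold1 had 33.43 and 115.8 CPM there, Adamts1 47.1 and 155, Fosl2 16.85 and 65.69, and Nr4a1 9.42 and 55.01.

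Immediate early and clock genes differed between libraries as lists. In TAC+ART members 11 of 15 immediate early and heat shock genes were past 1.5-fold lower than in TAC members and none was higher, with a median of -0.95, and in other endothelium 20 of 23 were lower and none higher (median -1.01), where 8.56% of all genes were higher and 6.33% lower. In TAC members against Sham members 5 were higher and 2 lower (median 0.15), and in other endothelium 14 of 23 were higher and 1 lower (median 0.67). The 2 genes given next were highest in Sham members, unlike the list's median. Nr4a1, an orphan nuclear receptor whose promoter above holds 4 copies of the TGACG core, had 17.6 CPM in TAC+ART, 83.7 in TAC and 100.6 in Sham members. Egr1, a zinc-finger factor, had 7.82, 41.8 and 162.5 CPM. Of 13 clock genes 9 were lower and none higher in TAC than in Sham (median -0.80), and of 14 in TAC+ART over TAC 7 were higher and 1 lower (median 0.60). In other endothelium 12 of 17 clock genes were lower and 2 higher in TAC than in Sham, and 10 of 18 were higher and 2 lower in TAC+ART than in TAC. Hlf, a clock output factor, had 76.2, 20.9 and 100.6 CPM in TAC+ART, TAC and Sham, Dbp had 144.6, 60 and 197.4 CPM, and Tef, shown above with its E-box, had 205.2, 93.5 and 259.3 CPM. Each group was 1 preparation, so the time and handling of the tissue cannot be told apart from the group.

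Interferon response genes were lower in TAC than in Sham in 5 of 18 members of the list and higher in none (median -0.30), and in TAC+ART over TAC 7 of 18 were higher and none lower (median 0.26). Iigp1, an interferon-induced GTPase, had 125.1, 46 and 185.8 CPM in TAC+ART, TAC and Sham, and Gbp3, a guanylate-binding protein whose promoter is printed above, had 46.9, 19.5 and 61.9 CPM. Other endothelium had ratios of -1.29 for Iigp1 and -1.03 for Gbp3 in TAC over Sham, and of 1.48 and 1.28 in TAC+ART over TAC. The atrial natriuretic peptide gene Nppa, made by cardiomyocytes, was measured in the same cells and its part in other values was not tested. It stood at 68.4, 386.3 and 11.6 CPM in TAC+ART, TAC and Sham members, with log2 ratios of -2.48 for TAC+ART over TAC and 4.84 for TAC over Sham, beside -1.83 and 4.51 in other endothelium. In TAC 40.1% of its UMIs lay in 1 cell; leaving out the cell with most UMIs in each library, a step chosen after seeing the data, gave -1.91 for Nppa, TAC+ART over TAC and 4.56 for Nppa, TAC over Sham.

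TAC+ART members were also set against Sham members, a comparison that shares a library with each of the others. Of 5036 genes with enough UMIs, 611 (12.1%) were at least 1.5-fold higher and 569 (11.3%) lower in TAC+ART, beside 7.12% and 5.64% of genes in other endothelium. Of 22 matrix genes 8 were higher and 2 lower (median 0.46), with Col4a2 at 291.1 CPM in TAC+ART and 139.3 CPM in Sham (1.05, 0.53 to 1.63). Of 13 immediate early and heat shock genes 6 were lower and none higher (median -0.58), and of 12 clock genes 1 was higher and none lower (median -0.16). Tgfb2 had 95.8 CPM in TAC+ART and 317.4 CPM in Sham (-1.72, -2.27 to -1.20), with 0.29 in other endothelium.

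**Figure D5:**
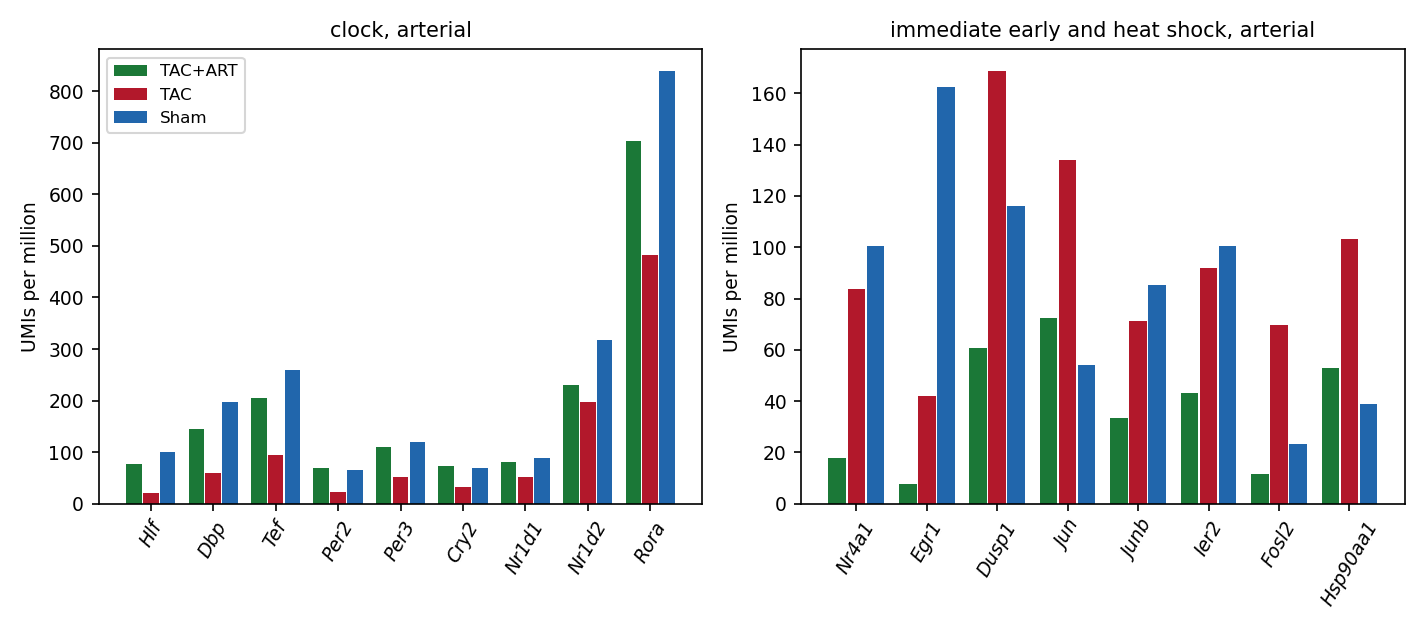
CPM of clock genes (left) and of immediate early and heat shock genes (right) in arterial members; each bar is 1 library, in the order TAC+ART, TAC and Sham, without error bars. The genes shown are a choice from their lists. All 9 clock genes shown are lowest in TAC, and all early genes shown except Jun and Hsp90aa1 are lowest in TAC+ART. Clock genes not shown go otherwise: Clock and Per1 are lowest in Sham, and Cry1 and Bhlhe40 are lowest in TAC+ART. Nr4a2, an early gene not shown, is lowest in TAC.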

How the data were processed

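Droplet RNA libraries were made from TAC+ART, TAC and Sham ventricles, 3 pooled hearts and 1 library per group. The deposited values are raw UMI counts per gene and barcode, made by the authors with Cell Ranger on mm10, with Seurat also named, per the submitters' processing notes. Libraries held 33364667, 37658150 and 17710689 UMIs in 6856, 7413 and 3752 barcodes of TAC+ART, TAC and Sham. No further filter on barcodes was applied, and doublet calls, 3, 2 and 1 among the members, were left out only as an alternative.

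Counts were summed per library and class. Arterial and other endothelium were compared with edgeR 4.0.16 (TMM, quasi-likelihood, library as a block, Benjamini-Hochberg threshold 0.05). It was also run on counts simulated from its own estimates, which cannot show how it behaves with 3 differently treated libraries. All adjusted p-values are from the fit to the real counts. The 3 libraries differ in treatment, so the error of that fit covers the spread of the class difference between them. Libraries were compared without a test, as log2 ratios of CPM with 0.5 added to each count and exact binomial intervals, for genes with at least 30 UMIs in both libraries together; called means past 1.5-fold. Intervals and floors of 3 counts cover counting error only.

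Genes named are the 15 highest and 10 lowest between classes (at least 50 CPM, same direction in 3 libraries), the 10 highest and lowest between libraries (guarded against genes over 3-fold higher in another class), up to 2 highest and 2 lowest of each list, and a set list of arterial and TLR4 genes; others are named as list members or were chosen after their values were seen. Members and lists were chosen with earlier results of these data known. Gate genes, and mitochondrial, ribosomal, haemoglobin and sex-linked genes, were left out of the rankings.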

Additional observations from a re-analysis of the deposited data

Results flagged for a closer look

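These genes had intervals on opposite sides of 0 in arterial members and in other endothelium for the same pair of libraries. With 1 library per group the difference between the classes was not tested in any of them.

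For TAC over Sham, Vcam1 had a log2 ratio of -1.055 in members and 1.51 in other endothelium. Col8a1 had -1.08 and 0.68, Ntn4, a netrin, had -1.13 and 0.65, and Ptgis, the prostacyclin synthase, had -1.535 and 0.48, each with the members' value before that of other endothelium. Fhit had -2.98 in members and 0.35 in other endothelium. Ablim3 had 0.64 in members and -0.17 in other endothelium, and Dlc1 had 0.30 and -0.12.

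For TAC+ART over TAC, Bmx had 0.69 in members and -0.40 in other endothelium, and Vwf had 0.48 and -0.20. Vcam1 had 0.55 in members and -1.15 in other endothelium. Myl2, a cardiomyocyte gene, had 0.23 and -0.18. Nrg1, a growth factor of the neuregulin family, had 0.83 in members and -1.08 in other endothelium, but 32 of its 37 TAC+ART UMIs lay in 1 cell. Vcam1 appears for both pairs, which share the TAC library, where 33% of its UMIs in members lay in 1 cell.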

How the results depend on the processing

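Library ratios rest on 1 library per group, so hearts, preparation and group cannot be told apart, and with 57 Sham members low genes carry few molecules. No paired analysis was possible because each group has 1 library. In the comparison of classes, leaving out the replicate block gave 378 genes higher and 259 lower, against 620 and 551 with it. DESeq2 called 454 higher and 312 lower. Leaving out each library in turn gave 498 to 676 higher and 396 to 642 lower. Over the alternatives, 944 values of named genes kept their direction and side of the threshold, 79 lost the call, 3 gained it and 5 reversed: against Vwf-rich endothelium Cgnl1 (-0.34), Nrp1 (0.51), Rsad2 (1.485) and Vwf (-2.49, a gene that class was gated on), and against capillary endothelium Sema3d (0.48).

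Without Sema3g in the sum, the log2 ratio of arterial shares for TAC over Sham was 0.94, against 0.35. Thinning to 3000 UMIs left fewer genes measurable, with 523 higher and 388 lower in TAC over Sham, 339 and 484 in TAC+ART over TAC, and 298 and 277 in TAC+ART over Sham. A minimum of 60 UMIs gave 486 and 342, 266 and 362, and 263 and 227. TMM scaling gave 1223 and 517 in TAC over Sham, 70.3% higher against 54.9%, and 62.6% higher against 51.8% in TAC+ART over Sham; adding 2 counts gave 648 and 855 (43.1% higher) in TAC over Sham.

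Of named library ratios 2921 stayed, 134 moved and 13 reversed. For TAC over Sham these were Eln (0.17 at a gate sum of 3), Kcnc2 (-0.69), Rbpj (0.23), Tcim (0.33) and G630055G22Rik (0.74) without Sema3g, and Tcim (0.12) and G630055G22Rik (3.055) at 3000 to 8000 UMIs. For TAC+ART over TAC they were Cdh11 (0.043 at an endocardial and lymphatic sum of 0) and Nrg1 (-1.38 at a gate sum of 3, -2.92 without Sema3g, -2.63 when thinned). Leaving out the cell with most UMIs of the gene, an alternative chosen after seeing the data, gave 1.30 for G630055G22Rik in TAC over Sham and -1.78 for Nrg1 in TAC+ART over TAC. The cause was not tested.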
